A study of Mus musculus with 8 samples.

Results

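Mouse embryonic fibroblasts (MEFs) that had been made senescent were kept for 24 h in an alkaline or in a control medium, and their polyadenylated RNA was sequenced. The comparison is of all genes in 2 alkaline against 2 control-medium libraries, 4 of the 8 libraries of the series, chosen by their labels and not by any measured value. The cells are called n-Sen after the label. Proliferating MEFs, grown at low oxygen, were arrested in G2 with RO3306, an inhibitor of the mitotic kinase CDK1, and given nutlin3a, which frees p53 from its inhibitor MDM2, for 48 h. They then spent 14 days in BI-2536 at 100 nM, an inhibitor of the mitotic kinase PLK1. Both groups compared here had this history, so every difference between them is one between senescent cultures. The media of both groups were buffered with HEPES and set to a pH; the labels name them as control and alkaline, and the pH values are not given in the sources used here. The other 4 libraries are untreated n-Sen cells and proliferating cells, 2 each, and they enter below only as levels to set beside the 2 media or as a separate comparison. The series names intracellular acidification of senescent cells as its subject. The comparison thus asks how RNA levels in senescent cells differ when the medium around them is more alkaline.

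Senescent cells have left the cell cycle for good while staying alive and metabolically active. They secrete cytokines, growth factors and proteases, together called the senescence-associated secretory phenotype (SASP), and hold an enlarged lysosome compartment. Cells set their cytosolic pH mainly with sodium-proton exchangers, which export acid, with bicarbonate transporters, and with transporters that carry lactate out together with a proton. The V-ATPase pumps protons into lysosomes. Extracellular pH acts on receptors and channels that sense protons and on the uptake of nutrients.

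Between 41342558 and 50467693 estimated counts were assigned to genes per library, and the 10 leading genes made up 7.93% to 8.47% of each total. The first principal component of the log2 levels, with 53.995% of the variance, separated the media, and the second, with 25.7%, separated the 2 alkaline libraries from each other. Nothing in the labels says that the 2 libraries of a group came from separate cultures, so the p-values measure the spread between these libraries, which may be technical. The defining fibroblast genes were present in all 4 libraries: Col1a1, the main chain of type I collagen, stood at 5621 and 6364 CPM in control medium and 8017 and 8045 CPM in alkaline medium. CPM is the count scaled to the library's size. CPM values were TMM-scaled over these 4 libraries, and those of untreated n-Sen and proliferating cells over all 8, so small gaps between the first and the second kind carry the difference in scaling. Markers of macrophages were present as well (below). Exons of 83 of the 329 genes that the naming rule selects overlap a gene on the opposite strand and exons of 15 overlap one on the same strand. Reads of such pairs may be mixed, because the strand setting of the counting is not given in the sources used here; among the genes with the largest changes this applies to Pi15, Gas1, Has2, Plxna4, Arhgap6, Lox and Tnc.

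RNA levels of 20.0% of the genes tested differed between the media, mostly by small amounts. Of 19129 genes tested, 1833 (9.58%) were higher and 1995 (10.4%) were lower in alkaline medium at an adjusted p under 0.05 (edgeR's quasi-likelihood test, Benjamini-Hochberg adjustment over all genes tested). The median absolute log2 difference of the genes that passed was 0.39, against 0.18 over all genes tested, and the median signed difference over all genes was -0.0093. Differences of at least 2-fold (1 on the log2 scale) were fewer, 184 genes higher (0.962%) and 344 lower (1.80%). The larger changes were thus more often decreases, as the plot of level against difference shows. Libraries of the 2 media did not overlap for 10859 genes, 56.8% of those tested, so lack of overlap alone is common here. The shares of 9.58% higher and 10.4% lower are the ones to set beside each list count below. The lists were chosen with earlier results of these data known, so the counts are descriptions and not tests.

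**Figure D1:**
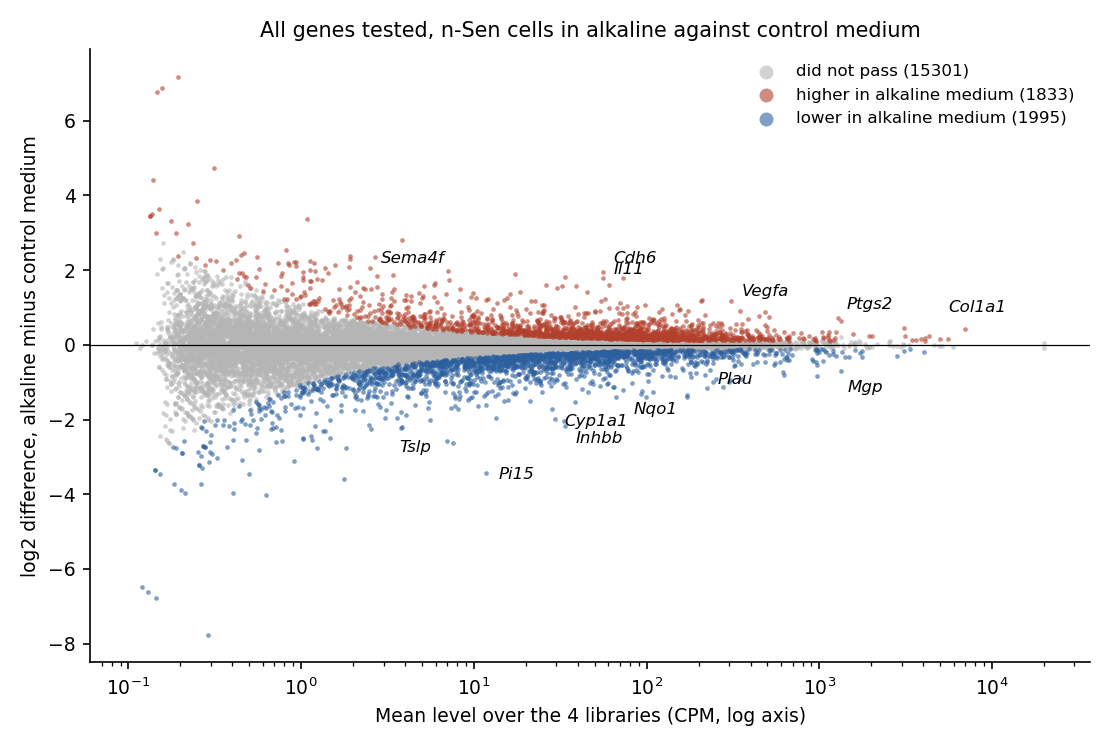
Each point is 1 of the 19129 genes tested, with its mean level over the 4 libraries in CPM (log axis) and its log2 difference, alkaline minus control medium. The 1833 genes higher in alkaline medium are red and the 1995 lower are blue; among well-expressed genes the lowest point named is Pi15, at -3.44.

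Among protein-coding genes with at least 10 CPM in the higher group and no overlap between media, 1463 were higher and 1330 lower. Adhesion and secreted proteins were among the highest by fold. Sema4f, a membrane semaphorin, stood at 2.61 and 3.14 CPM in control medium and 11.03 and 11.4 CPM in alkaline medium (log2 difference 1.97, SE 0.15, edgeR adjusted p = 1.1e-09). Cdh6, which encodes a classical cadherin, stood at 23.2 and 22.4 CPM against 82.9 and 94.1 CPM (log2 difference 1.96, SE 0.069, edgeR adjusted p = 5.1e-15), and another cadherin gene, Cdh10, at 5.66 and 5.20 against 12.5 and 16.1 CPM. Il11, a cytokine of the interleukin 6 family, went from 23.9 and 26.2 CPM to 87.4 and 85.4 CPM (log2 difference 1.79, SE 0.064, edgeR adjusted p = 5.7e-15). The 2 libraries of each medium lay close together for Il11 and far from those of the other medium.

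Enzymes of hyaluronan production were in the same group. Has2, a hyaluronan synthase, was at 29.8 and 30.3 CPM in control medium and 88.8 and 94.8 CPM in alkaline medium (log2 difference 1.61, SE 0.061, edgeR adjusted p = 8.6e-15). Gfpt2, which makes glucosamine 6-phosphate and so opens the hexosamine route that supplies hyaluronan, was at 15.5 and 16.9 against 44.6 and 52.2 CPM (log2 difference 1.58, SE 0.085, edgeR adjusted p = 2.7e-12), and its paralog Gfpt1 was 1.26-fold higher. Other genes of the 15 with the largest increase were Olfm2, Whrn, Prss35, Wnt9a, Olr1, Prss46 and Plxna4, with log2 differences from 1.41 to 1.81. Wnt9a is a Wnt ligand, Olr1 a receptor for oxidized low-density lipoprotein and Plxna4 a semaphorin receptor.

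Among protein-coding genes of at least 10 CPM that fell without overlap, Pi15 changed most. Pi15 encodes a secreted protein of the cysteine-rich CAP family. It was at 22.6 and 20.7 CPM in control medium and at 1.75 and 2.23 CPM in alkaline medium (log2 difference -3.44, SE 0.14, edgeR adjusted p = 2.9e-14), so control medium held 10.8 times the alkaline level. Several others encode secreted signals. Tslp, a cytokine best known from epithelia, stood at 13.9 and 12.3 CPM against 2.73 and 1.52 CPM (log2 difference -2.64, SE 0.18, edgeR adjusted p = 2.7e-10), and Inhbb, the activin B subunit, at 52.6 and 57.6 against 11.98 and 12.3 CPM (log2 difference -2.18, SE 0.08, edgeR adjusted p = 6.4e-15). Ptx3, a soluble pattern recognition protein, Rspo2, which amplifies Wnt signalling, and Adm, a vasodilator peptide, had log2 differences of -2.05, -1.99 and -1.95. In each of these 6 genes both alkaline libraries lay below both control libraries by more than the gap within either pair. Lack of overlap was a condition of their selection. Gas1, a growth-arrest gene, had a log2 difference of -2.56. The cytokine Tnfsf15, the interleukin 1 receptor antagonist Il1rn and the Wnt inhibitor Dkk2 fell by between 1.51 and 1.62 on the log2 scale, and Arhgap6, Egr3, Rtl3, Pde7b and Cyp1a1 complete the 15.

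**Figure D2:**
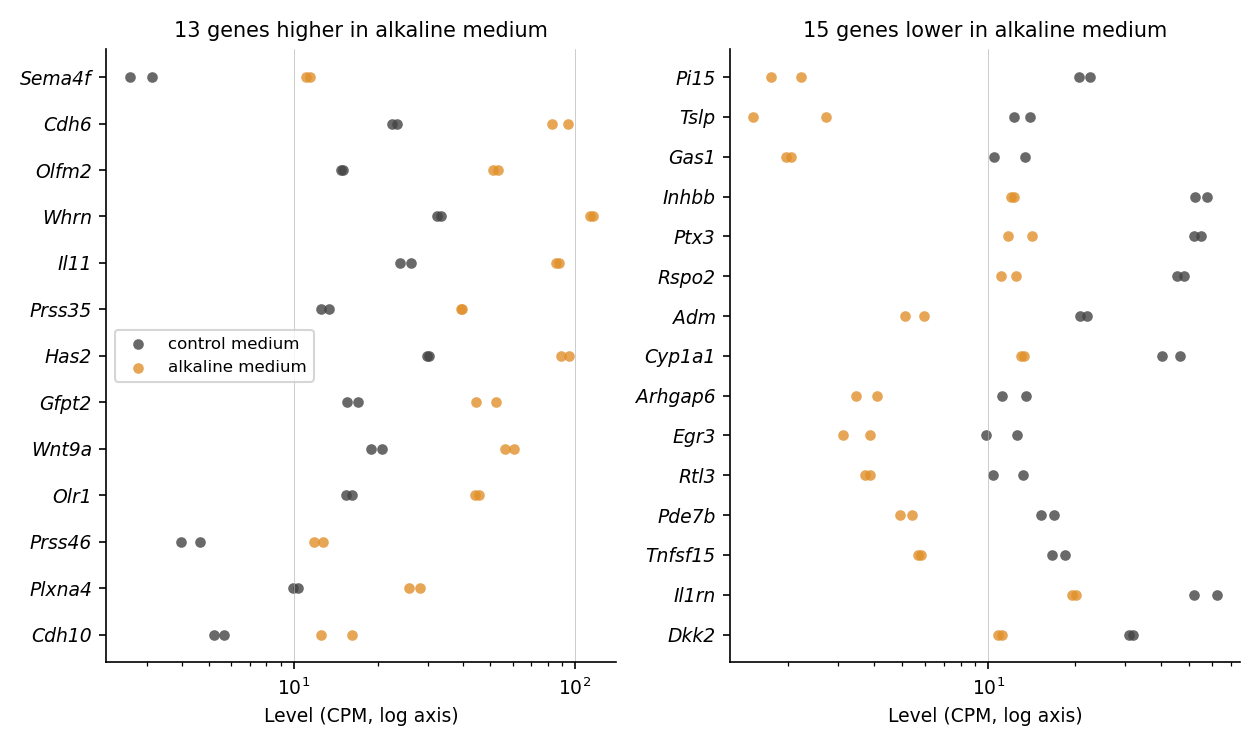
Level in CPM (log axis) of 13 of the 15 genes with the largest increase (left) and the 15 with the largest decrease (right) in alkaline medium, among protein-coding genes of at least 10 CPM; each dot is 1 library. Lack of overlap between the 2 alkaline libraries (orange) and the 2 control libraries (grey) was a condition for showing a gene. It was also found for 56.8% of all genes tested.

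On the CPM scale, which is not divided by transcript length, the largest gains were in matrix and adhesion genes and in signals. Col1a1 rose by a log2 difference of 0.42 (edgeR adjusted p = 3.8e-08), Col5a2, a type V collagen chain, by 0.18 and Tnc, tenascin C, by 0.23. The lysyl oxidase Lox and the fibronectin receptor chain Itga5 rose by 0.15 and 0.64. Inhba, the activin A subunit, stood at 2593 and 2639 CPM in control medium and 3523 and 3643 CPM in alkaline medium, and Ptgs2, which makes prostaglandin H2, at 959 and 977 against 1572 and 1639 CPM. The largest losses on that scale were in Mgp, an inhibitor of calcification, at 1674 and 1641 against 1024 and 1014 CPM (log2 difference -0.70, SE 0.036, edgeR adjusted p = 1.2e-12), and in Timp2, Vim, Igfbp2, Ccdc80, Col12a1, Myh10 and Cyp1b1. Col12a1 did not pass by DESeq2 (adjusted p = 0.28) or without alkaline replicate 1 (edgeR adjusted p = 0.10).

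The aryl hydrocarbon receptor (AHR) is a transcription factor that binds small aromatic molecules, pairs with ARNT and acts on DNA sites with the core GCGTG. Its best known targets are the oxidizing enzymes Cyp1a1 and Cyp1b1, the quinone reductase Nqo1, the receptor's repressor Ahrr and the ADP-ribosyltransferase Tiparp. Of 10 listed genes of this axis that were tested, 9 were lower in alkaline medium and 0 higher, against 10.4% lower among all genes tested. Their median log2 difference was -0.84. This list too was chosen with earlier results of these data known. Cyp1a1 stood at 40.2 and 46.6 CPM in control medium and 13.00 and 13.3 CPM in alkaline medium (log2 difference -1.72, SE 0.088, edgeR adjusted p = 1.1e-12). In untreated n-Sen cells it was at 0.0858 and 0.0370 CPM and in proliferating cells at 0.386 and 0.401 CPM, so the libraries of both media stood above those of cells kept in neither. Nqo1 fell from 247 and 253 to 98.1 and 91.1 CPM (log2 difference -1.40, SE 0.049, edgeR adjusted p = 5.1e-15), with 59.4 and 69.9 CPM in untreated n-Sen cells. Ahrr fell from 22.5 and 21.5 to 7.55 and 7.94 CPM (log2 difference -1.51, SE 0.10, edgeR adjusted p = 2.3e-10) and was at 6.69 and 7.89 CPM in untreated n-Sen cells. Cyp1b1 was at 765 and 827 CPM in control medium, 447 and 459 CPM in alkaline medium and 327 and 337 CPM in untreated n-Sen cells. The comparison of control medium with untreated n-Sen cells shares the control libraries, so its differences are no second measurement of the decrease. For these 4 genes the control-medium libraries were the highest of all 4 groups.

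Promoters of the AHR genes that fell were searched because their genes moved together and because the receptor's core can be searched for as letters. Only the windows that hold the core are printed here. RefSeq windows (build GRCm38.p6, 250 bases before to 50 after the start, printed in the gene's direction) were found for 8 of the 9 genes that fell, and 4 of the 8 hold GCGTG on either strand. The windows of Nqo1, Arnt2, Nfe2l2 and Ugt1a6a hold 0 copies. Whether the receptor binds any of the cores was not tested. Over all genes tested with a window the share was 53.1%, with 61.7% among genes that rose and 50.4% among genes that fell. Capitals mark the core, read as GCGTG or as its reverse complement CACGC. Tiparp, with a log2 difference of -0.70, is named after its values were seen. The windows are chr13:74292282-74292581 on the minus strand for Ahrr, chr9:57697363-57697662 on the plus strand for Cyp1a1, chr17:79715012-79715311 on the minus strand for Cyp1b1 and chr3:65528197-65528496 on the plus strand for Tiparp.
Ahrr: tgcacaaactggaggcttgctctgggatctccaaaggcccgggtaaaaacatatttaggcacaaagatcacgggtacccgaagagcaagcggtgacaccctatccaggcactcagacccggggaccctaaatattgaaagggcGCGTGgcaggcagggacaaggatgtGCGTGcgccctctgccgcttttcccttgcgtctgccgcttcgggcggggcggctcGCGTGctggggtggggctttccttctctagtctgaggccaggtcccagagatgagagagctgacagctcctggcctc
Cyp1a1: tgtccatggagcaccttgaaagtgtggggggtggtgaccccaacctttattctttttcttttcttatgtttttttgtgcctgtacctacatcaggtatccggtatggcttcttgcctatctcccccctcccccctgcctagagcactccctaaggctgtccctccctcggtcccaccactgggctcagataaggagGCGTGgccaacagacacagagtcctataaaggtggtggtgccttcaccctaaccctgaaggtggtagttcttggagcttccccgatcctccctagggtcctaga
Cyp1b1: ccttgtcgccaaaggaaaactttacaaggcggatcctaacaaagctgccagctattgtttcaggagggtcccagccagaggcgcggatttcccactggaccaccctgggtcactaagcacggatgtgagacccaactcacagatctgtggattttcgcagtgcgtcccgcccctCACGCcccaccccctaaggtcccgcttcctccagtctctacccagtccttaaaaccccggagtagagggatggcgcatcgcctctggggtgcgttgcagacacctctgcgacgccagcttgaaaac
Tiparp: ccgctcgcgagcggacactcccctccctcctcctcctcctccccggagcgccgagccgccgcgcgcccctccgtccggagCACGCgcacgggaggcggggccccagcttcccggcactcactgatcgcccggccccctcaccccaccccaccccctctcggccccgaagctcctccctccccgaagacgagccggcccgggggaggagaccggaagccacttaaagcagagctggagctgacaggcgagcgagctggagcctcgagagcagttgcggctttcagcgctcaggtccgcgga
The Ahrr window holds 3 copies of the core and each of the other windows printed holds 1.

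Other short motifs were counted in the windows of all genes that passed, beside the base composition. Windows of genes higher in alkaline medium had a mean GC content of 63.5%, those of genes that fell 60.1% and those of all genes tested 60.2%. The letters ACGTG, part of the site of hypoxia-inducible factors and of E-box factors, were in 35.2% of the windows of higher genes, 22.0% of those of lower genes and 28.0% of all. CACGTG, an E-box that contains ACGTG, was in 13.7%, 9.15% and 10.98%. GGAATG, the site of TEAD factors, went the other way, with 14.0%, 18.8% and 14.7%. Both strands were searched, and the part of GC content in these shares was not tested. TGANTCA, the site of AP-1, was in 7.98%, 8.87% and 6.83%, and TGACNNNGC, the core of the NRF2 element, in 18.1%, 16.3% and 16.7%.

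Genes of the antioxidant programme fell with the AHR genes. NRF2, encoded by Nfe2l2, is a transcription factor that raises genes for glutathione synthesis, quinone reduction and thioredoxin recycling. Of 33 such genes tested, 0 were higher and 19 lower, with a median log2 difference of -0.22. Nqo1 and Nfe2l2 stand in both lists. Gclc, the catalytic subunit of the enzyme that starts glutathione synthesis, stood at 91.1 and 86.01 CPM in control medium and 40.9 and 40.3 CPM in alkaline medium (log2 difference -1.13, SE 0.059, edgeR adjusted p = 1.7e-12), with 47.2 and 49.4 CPM in untreated n-Sen cells. Txnrd1, thioredoxin reductase, fell from 643 and 652 to 469 and 453 CPM (log2 difference -0.49, SE 0.04, edgeR adjusted p = 3.1e-09), and stood at 275 and 289 CPM untreated. Gsta4, a glutathione transferase, fell by 1.37 on the log2 scale. Hmox1, heme oxygenase 1, stood at 1035 and 1076 CPM in control medium, 934 and 918 CPM in alkaline medium and 295 and 347 CPM untreated. For Hmox1 the difference between media was small beside the one between either medium and untreated cells.

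**Figure D3:**
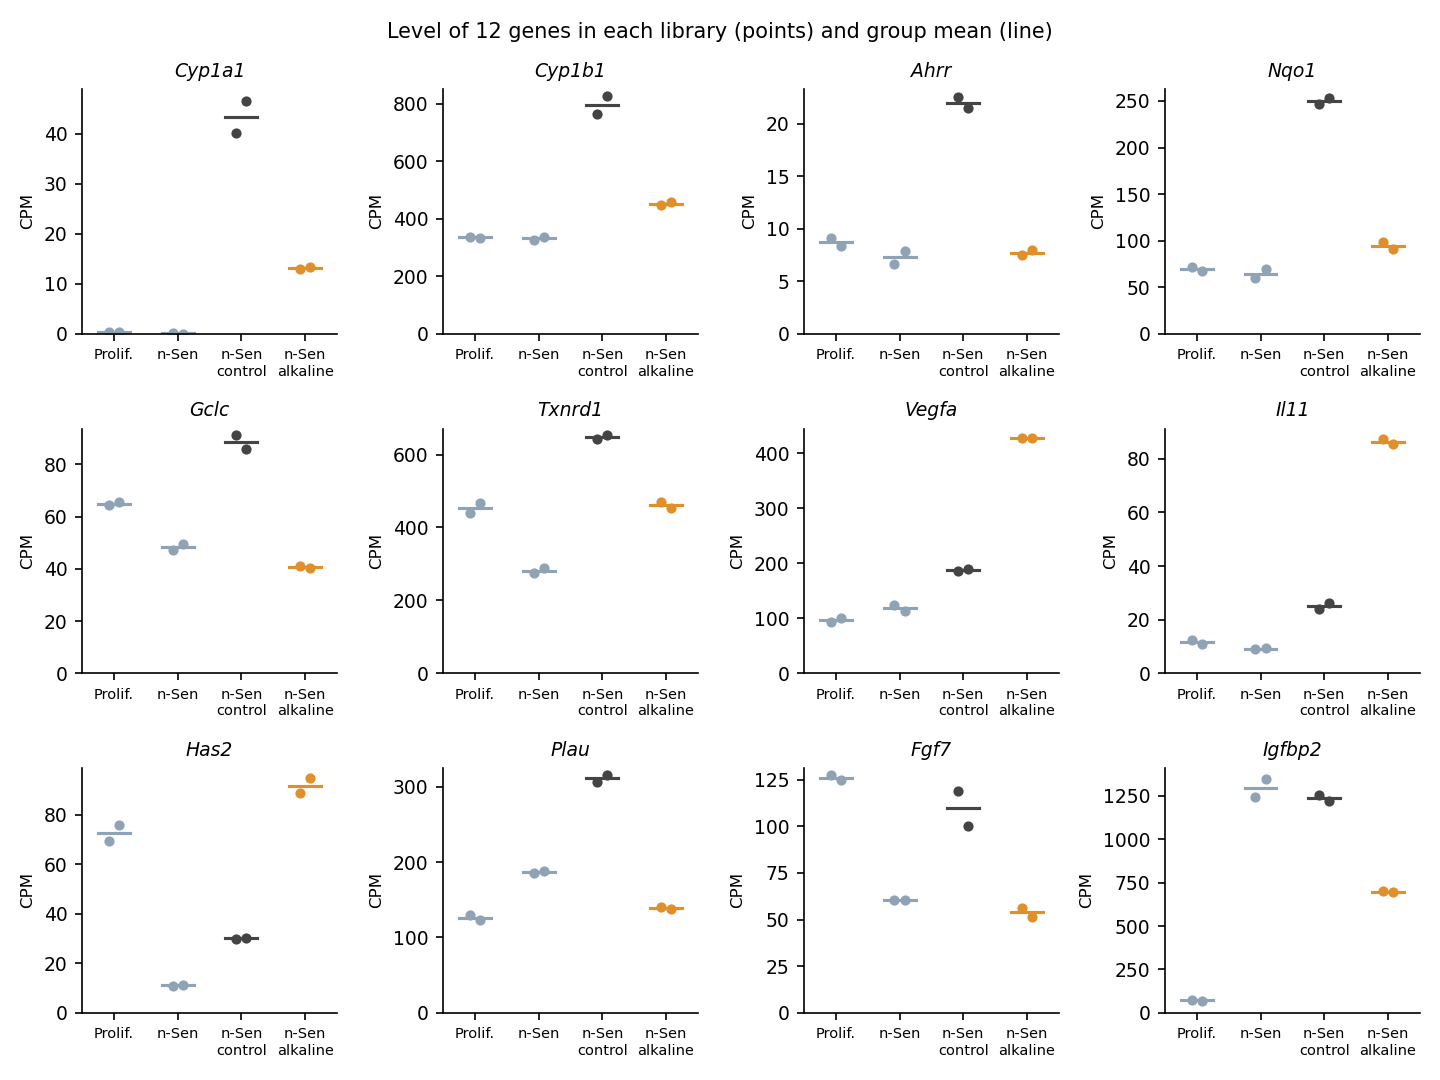
Level in CPM (linear axis from 0) of 12 genes in each of the 8 libraries; points are libraries and lines are means of 2. The AHR and NRF2 genes in the first 6 panels are highest in control medium, whereas Vegfa, Il11 and Has2 are highest in alkaline medium and Plau, Fgf7 and Igfbp2 are lower in alkaline than in control medium.

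Secreted factors of the SASP split between the directions. Of 35 cytokine, chemokine and growth factor genes tested, 11 were higher and 9 lower, or 6 lower by DESeq2, with a median log2 difference of 0.094. The log2 differences of members that passed ran from -3.96 to 1.79. The increases included Il11 (above) and Vegfa, the main angiogenic growth factor, at 186 and 190.3 CPM in control medium and 428 and 428 CPM in alkaline medium (log2 difference 1.19, SE 0.042, edgeR adjusted p = 5.1e-15). Lif, an interleukin 6 family cytokine, was at 47.8 and 50.7 against 97.7 and 97.4 CPM (log2 difference 0.99, SE 0.056, edgeR adjusted p = 8.0e-12) and Nrg1, a ligand of ERBB receptors, at 31.04 and 36.4 against 74.3 and 77.1 CPM (log2 difference 1.17, SE 0.069, edgeR adjusted p = 1.5e-11). Hbegf, a ligand of the EGF receptor, went from 337 and 349 to 627 and 626 CPM. In untreated n-Sen cells Il11, Vegfa, Lif and Hbegf stood below both media groups, at 9.07 and 9.35, 124 and 114, 20.1 and 21.3 and 147 and 147 CPM. Csf1, which supports macrophages, was higher by a log2 difference of 0.34.

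Decreases among the SASP signals included Fgf7, a growth factor for epithelia, at 119 and 100.3 CPM in control medium and 56.2 and 51.6 CPM in alkaline medium (log2 difference -1.03, SE 0.069, edgeR adjusted p = 1.3e-10). Cxcl12, a chemokine, fell from 399.8 and 379 to 301 and 281 CPM, and Ereg, an EGF receptor ligand, from 148 and 148 to 107 and 109 CPM. Il6, Ccl2 and Cxcl1, classical SASP markers, did not pass. Il6 stood at 3.46 and 2.56 CPM against 4.12 and 4.64 CPM (edgeR adjusted p = 0.053; 0.011 without control replicate 1, 0.040 without alkaline replicate 1, 0.041 with no filter on low counts, 0.047 with a filter at 1 CPM and 0.027 with the replicate block), and Ccl2 at 82.1 and 84.96 against 97.8 and 86.9 CPM (edgeR adjusted p = 0.087; 0.014 without alkaline replicate 2). Cxcl1 was under 1 CPM in all 4 libraries. Other chemokine genes passed in both directions, here named after their values were seen. Cxcl5, Cxcl15 and Cxcl2 were lower, with log2 differences of -2.50, -2.20 and -1.59, and Ccl17 was higher, at 1.56.

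Proteases and their inhibitors showed 9 higher and 12 lower of 31 tested. Plau, urokinase, which activates plasminogen, was at 307 and 315 CPM in control medium and 140.1 and 138 CPM in alkaline medium (log2 difference -1.16, SE 0.044, edgeR adjusted p = 8.6e-15). Serpine2, which inhibits it, fell from 793 and 750.4 to 459 and 477 CPM, and the other activator gene, Plat, rose by a log2 difference of 0.42. The insulin-like growth factor binding proteins Igfbp2, Igfbp4 and Igfbp3 fell, with Igfbp2 at 1257 and 1224 CPM against 704 and 695 CPM (log2 difference -0.83, SE 0.037, edgeR adjusted p = 1.4e-13). Timp1 and Timp3, inhibitors of metalloproteinases, rose by 0.38 and 0.25, while Timp2 fell by 0.31 on the log2 scale. Mmp3 stood at 3.30 and 3.24 CPM against 3.24 and 2.63 CPM (edgeR adjusted p = 0.68).

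Targets of NF-kB, the main inflammatory transcription factor, moved in both directions. Of 29 NF-kB targets, 4 were higher and 7 lower, or 4 lower by DESeq2, without control replicate 1 or without alkaline replicate 2. Vcam1, an adhesion molecule for leukocytes, stood at 158 and 151 CPM in control medium and 67.5 and 60.6 CPM in alkaline medium (log2 difference -1.27, SE 0.056, edgeR adjusted p = 8.0e-14). Tnfaip2 fell from 172 and 179 to 99.4 and 96.8 CPM, and Icam1, another leukocyte adhesion molecule, from 59.2 and 63.2 to 41.6 and 44.98 CPM, whereas Ptgs2 and Csf1 were among the 4 that rose. Nfkbia, the inhibitor of NF-kB that it induces itself, was at 23.7 and 26.2 CPM against 24.1 and 22.7 CPM (edgeR adjusted p = 0.54). Other genes of prostaglandin synthesis and reception that passed fell: of 16 prostaglandin genes, Ptgs2 alone was higher (2 genes without control replicate 1) and 5 were lower. Ptges, a prostaglandin E synthase, fell from 31.4 and 34.1 to 16.6 and 19.1 CPM (log2 difference -0.88, SE 0.088, edgeR adjusted p = 8.9e-08), and Ptger4, a prostaglandin E receptor, Ptgis, prostacyclin synthase, and Hpgd, which degrades prostaglandins, fell by between 0.56 and 0.78 on the log2 scale.

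The complement, interferon response and class I antigen presentation genes that passed were all lower in alkaline medium. The summed level of the class I list did not fall, at 2591 and 2592 CPM in control medium and 2598 and 2615 CPM in alkaline medium. Of 17 complement genes, 0 were higher and 12 lower, with a median log2 difference of -0.40. Cd59a and Cd55, which shield cells from complement, fell by 0.42 and 0.40 on the log2 scale, and Serping1, the C1 inhibitor, went from 26.8 and 26.2 to 17.6 and 19.6 CPM. Of 28 interferon response genes, 0 were higher (1 without alkaline replicate 1) and 8 lower (median -0.45), among them Ddx58 (RIG-I), a sensor of viral RNA, at 29.3 and 26.6 CPM against 16.9 and 15.7 CPM (log2 difference -0.78, SE 0.09, edgeR adjusted p = 6.3e-07), and Ifitm3, Ifit2 and Bst2. Of 17 genes of class I antigen presentation 4 were lower and 0 higher (2 higher by DESeq2, 1 without control replicate 1 and 1 without control replicate 2), among them B2m, the shared light chain, which fell from 304 and 297 to 235 and 243 CPM. H2-D1 and H2-K1 are closely related copies whose reads the counting could split; H2-K1 did not pass without control replicate 1 (edgeR adjusted p = 0.051) or without alkaline replicate 2 (0.13).

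Macrophage markers moved with these groups. Their summed level was 1440.0 and 1362 CPM in control medium, 1255 and 1253 CPM in alkaline medium, and, as means of 2, 1460.2 CPM in untreated n-Sen cells and 68.5 CPM in proliferating cells. All 22 markers were tested, 21 had a mean of at least 1 CPM in a medium, and none was at 0 in any of the 4 libraries. Of them 10 were lower in alkaline medium and 0 higher, with a median log2 difference of -0.28. Mrc1, the mannose receptor, stood at 13.4 and 14.4 CPM against 4.55 and 5.73 CPM (log2 difference -1.43, SE 0.13, edgeR adjusted p = 2.8e-08), and Adgre1, the F4/80 antigen, at 57.7 and 53.3 against 36.9 and 37.6 CPM. Lyz2, lysozyme, the largest part of the sum, was at 722 and 664 CPM against 666 and 662 CPM (edgeR adjusted p = 0.36). The complement genes C1qa, C1qb and C1qc are in the macrophage list too, and the other 9 of the 12 complement genes that fell are not in it; whether macrophages express those 9 was not tested. In bulk RNA, fewer cells of a type and less RNA per cell cannot be told apart. The part of macrophage-marker RNA in the decrease of the immune genes was not tested.

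Signals of the TGF-beta superfamily were rearranged in both directions. Of 30 TGF-beta and SMAD targets, 12 were higher and 10 lower. The receptor Tgfbr1 stood at 65.1 and 62.8 CPM in control medium and 105 and 114 CPM in alkaline medium (log2 difference 0.77, SE 0.055, edgeR adjusted p = 3.8e-10). Feedback genes rose: Smad7, an inhibitor of the receptors, by 0.65, Skil, a repressor of SMAD proteins, by 0.80 and Pmepa1 by 0.53. The signal carrier Smad3 fell from 56.2 and 63.8 to 38.04 and 37.2 CPM (log2 difference -0.67, SE 0.068, edgeR adjusted p = 1.0e-07). The ligand genes moved apart: Tgfb3 and Tgfb2 fell by 0.53 and 0.38 on the log2 scale, and Tgfb1 rose by 0.43. Tgfb1 and Tgfb2 are named after their values were seen. In the bone morphogenetic protein and activin axis 5 of 27 genes were higher and 10 lower. The 2 activin subunits moved apart, Inhba up and Inhbb down (above), and Bmp4 fell from 32.3 and 39.4 to 17.2 and 21.2 CPM. The antagonists Grem1 and Fstl1 fell by 0.42 and 0.32, while Fstl3, which binds activins, rose by 0.73.

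Wnt genes fell for the most part. Of 28 ligands, inhibitors and targets, 5 were higher and 15 lower, with a median log2 difference of -0.42. The ligand Wnt9a stood at 18.9 and 20.6 CPM in control medium and 60.6 and 56.4 CPM in alkaline medium (log2 difference 1.57, SE 0.073, edgeR adjusted p = 2.5e-13), and Wnt10b and Wnt5a rose by 1.22 and 0.28. The secreted modulators that passed fell. Rspo2 was at 48.2 and 45.6 CPM against 12.5 and 11.1 CPM (log2 difference -1.99, SE 0.084, edgeR adjusted p = 4.7e-14), and the inhibitors Sfrp2, Dkk2 and Dkk3 fell by 2.20, 1.51 and 0.55 on the log2 scale. Of the ligand genes in the list 4 rose and 1, Wnt16, fell. Wnt10a, a ligand outside the list that is named after its values were seen, was lower by 0.98 on the log2 scale. The remaining gene that rose, Znrf3, which removes Wnt receptors from the cell surface, stood at 7.91 and 9.75 CPM against 12.6 and 11.8 CPM (log2 difference 0.46, SE 0.12, edgeR adjusted p = 0.0093; adjusted p = 0.14 without control replicate 1).

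Genes that report on ERK signalling split. Of 21 genes listed for ERK signalling, not all of them feedback inhibitors, 6 were higher and 12 lower (median log2 difference -0.22). The inhibitors Spry1, Spry2 and Spred1 fell, Spry1 from 33.3 and 33.1 to 15.5 and 16.04 CPM (log2 difference -1.08, SE 0.083, edgeR adjusted p = 1.3e-09), and so did Ccnd1, cyclin D1, from 397 and 397 to 203 and 196 CPM (log2 difference -0.99, SE 0.043, edgeR adjusted p = 5.7e-14). The phosphatase gene Dusp4 and the ligand gene Hbegf rose by 0.63 and 0.87. Of 30 immediate early genes, 7 were higher and 14 lower, or 9 lower by DESeq2, without control replicate 2 or without alkaline replicate 1. Egr1, a transcription factor induced by growth factors, fell from 127 and 135 to 53.9 and 57.4 CPM (log2 difference -1.24, SE 0.055, edgeR adjusted p = 1.2e-13), with 46.9 and 37.9 CPM in untreated n-Sen cells. Ier3 rose from 91.8 and 91.5 to 141 and 146 CPM.

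The matrix changed by type of component. Of 38 collagens and structural matrix genes, 11 were higher and 15 lower. Col7a1, the anchoring fibril collagen, stood at 126 and 126 CPM in control medium and 274 and 299 CPM in alkaline medium (log2 difference 1.18, SE 0.048, edgeR adjusted p = 2.9e-14), and Col5a3 at 99.2 and 103 against 169 and 188 CPM (log2 difference 0.82, SE 0.053, edgeR adjusted p = 7.3e-11). Fibrillar chains moved in both directions: Col1a1, Col1a2 and Col5a2 rose by 0.42, 0.17 and 0.18, and Col3a1 fell by 0.13 on the log2 scale. Several elastic fibre and microfibril genes fell: Eln, elastin, from 241 and 226 to 119.7 and 135 CPM (log2 difference -0.87, SE 0.054, edgeR adjusted p = 3.2e-11), Fbln5 by 0.46, and the type VI collagen chains Col6a1 and Col6a2 by 0.74 and 0.67 on the log2 scale. Of 22 genes that hydroxylate, process or crosslink collagen, 14 were higher and 4 lower, with a median of 0.19; the lower count was 2 without control replicate 2 or without alkaline replicate 2. Plod2, a lysyl hydroxylase, rose from 262 and 269 to 375 and 402 CPM (log2 difference 0.55, SE 0.044, edgeR adjusted p = 2.4e-09), and Loxl4, a lysyl oxidase, and Bmp1, which cleaves procollagen, rose by 0.62 and 0.40.

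Most genes of small leucine-rich proteoglycans, which coat collagen fibrils, that passed fell. In the list of these and of hyaluronan genes, 2 of 20 were higher and 10 lower (median -0.22). Prelp stood at 229.7 and 259.5 CPM in control medium and 93.2 and 99.01 CPM in alkaline medium (log2 difference -1.35, SE 0.055, edgeR adjusted p = 2.9e-14), and Podn at 9.55 and 12.6 against 5.60 and 5.51 CPM. Cemip, which breaks down hyaluronan, fell from 455 and 467 to 244 and 245 CPM (log2 difference -0.91, SE 0.041, edgeR adjusted p = 1.4e-13), while the synthase Has2 rose (above). Contractile genes showed 3 higher and 8 lower of 23, or 5 lower without alkaline replicate 2. Myh11, smooth muscle myosin, and Des, desmin, fell by 0.24 and 0.72 on the log2 scale, and Acta2, smooth muscle actin, stood at 4636 and 4590.4 against 4612 and 4532 CPM (edgeR adjusted p = 0.84). Of 23 YAP and TEAD targets 8 were higher and 6 lower, with F3, tissue factor, the initiator of clotting, at 289.8 and 288 CPM against 436 and 418 CPM.

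Of 34 genes of acid-base transport 6 were higher and 2 lower, against 9.58% higher among all genes tested. Slc9a9, an endosomal sodium-proton exchanger, fell from 3.38 and 2.58 to 1.66 and 1.20 CPM (log2 difference -1.06, SE 0.25, edgeR adjusted p = 0.0036). Slc26a11, an anion transporter, fell from 10.4 and 10.7 to 7.69 and 7.85 CPM (edgeR adjusted p = 0.012; 0.051 without control replicate 2). The lactate and proton exporter Slc16a3 (MCT4) stood at 22.3 and 22.3 CPM in control medium and 36.3 and 36.5 CPM in alkaline medium (log2 difference 0.71, SE 0.075, edgeR adjusted p = 2.1e-07); it was at 42.5 and 41.3 CPM in untreated n-Sen cells. The anion exchanger Slc4a2, which exports bicarbonate, was at 149 and 154 against 197 and 195 CPM, and at 174 and 187 CPM untreated. Slc9a5, a sodium-proton exchanger, rose from 10.6 and 9.02 to 15.8 and 15.2 CPM (log2 difference 0.66, SE 0.11, edgeR adjusted p = 0.00014), and the sodium-bicarbonate carrier Slc4a7 from 69.4 and 65.8 to 83.8 and 85.7 CPM (log2 difference 0.33, SE 0.055, edgeR adjusted p = 0.00011). Slc16a1 (MCT1) stood at 12.3 and 13.8 against 16.1 and 12.2 CPM (edgeR adjusted p = 0.58). The carbonic anhydrase genes Car9, at 3.28 and 3.38 against 3.80 and 3.66 CPM, and Car12, at 7.14 and 5.88 against 4.41 and 5.62 CPM, did not pass. Of 13 proton-sensing receptors and channels tested, 2 fell, P2rx4, an ATP-gated channel, and Kcnk2, a potassium channel; 0 rose (1 without alkaline replicate 2). The 2 that fell were 15.4% of those tested, against 10.4% of all genes tested. The proton receptor gene Gpr4 was under 1 CPM in all 4 libraries.

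V-ATPase subunits were 7 higher and 2 lower of 20, with a median log2 difference of 0.12; Atp6v1g1 rose from 162 and 163 to 238 and 234 CPM (log2 difference 0.54, SE 0.044, edgeR adjusted p = 3.1e-09). The 2 that fell, Atp6v0a1 and Atp6v0d2, both passed only in part of the alternatives: 0 fell without alkaline replicate 1 and 1 without any other library. Of 51 lysosome and autophagy genes 14 were higher and 7 lower, but 7, 5 and 8 were higher without control replicate 1, alkaline replicate 1 or alkaline replicate 2, and the median log2 difference was 0.016. Fnip1 and Grn, progranulin, rose by 0.38 and 0.23, and Mitf, a regulator of lysosome genes, fell by 0.71 on the log2 scale. The count of lysosome genes that rose thus depended on which library was in the fit.

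Genes of glycolysis and hypoxia rose more often than they fell. Of 31 glycolysis genes, 9 were higher and 2 lower, among them Hk2, hexokinase 2, at 88.03 and 96.5 CPM in control medium and 131 and 143 CPM in alkaline medium (log2 difference 0.57, SE 0.056, edgeR adjusted p = 4.7e-08), and the glucose transporter Slc2a1 at 102 and 110.2 against 145 and 159 CPM. Pdk4, which closes the entry of pyruvate into mitochondria, fell by 0.74 on the log2 scale. Ldha stood at 514 and 505 CPM against 544 and 543 CPM (edgeR adjusted p = 0.11), below 647 and 663 CPM in untreated n-Sen cells. Of 33 hypoxia genes 13 were higher and 4 lower (median 0.16). Bhlhe40, a transcriptional repressor, rose from 59.2 and 66.6 to 132 and 131 CPM (log2 difference 1.07, SE 0.057, edgeR adjusted p = 2.2e-12), while Adm and Stc2 fell by 1.95 and 1.89; Vegfa and Plod2 (above) are in the list. The hypoxia kinase gene Pdk1 stood at 14.5 and 13.4 against 14.3 and 16.8 CPM (edgeR adjusted p = 0.34). Of 22 glutamine genes 5 were higher and 5 lower, or 3 lower without control replicate 2 or without alkaline replicate 2.

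Most genes of cholesterol synthesis rose. Of 28 genes of synthesis and uptake, 19 were higher and 1, Mylip, a ubiquitin ligase that limits lipoprotein uptake, was lower; the median log2 difference was 0.21. Dhcr7, of the last steps, rose from 11.6 and 12.7 CPM in control medium to 21.9 and 20.1 CPM in alkaline medium (log2 difference 0.79, SE 0.10, edgeR adjusted p = 2.6e-06), and Cyp51, which demethylates lanosterol, from 121 and 122 to 164 and 161 CPM (log2 difference 0.42, SE 0.046, edgeR adjusted p = 3.3e-07). In proliferating cells Dhcr7 was at 27.6 and 26.96 CPM and Cyp51 at 219 and 206 CPM, both above the alkaline libraries. The exporter genes Abca1 and Abcg1 moved apart, at -0.93 and 0.84 on the log2 scale. Fasn, fatty acid synthase, rose by 0.43, and Plin2, a coat protein of lipid droplets, went from 105 and 106 to 211 and 201 CPM (log2 difference 0.97, SE 0.047, edgeR adjusted p = 5.3e-13), while Pparg and Lpl, genes of fat cells, fell. Of 15 genes of cholesterol efflux 2 were higher, or 4 without control replicate 2, and 4 lower. Of 16 genes of fatty acid synthesis 4 were higher and 3 lower, but 2 were higher without control replicate 1 or without alkaline replicate 1, and 1 was lower by DESeq2 and without any 1 of the 4 libraries. Of 13 genes of fat storage 1, Plin2, was higher and 4 lower, or 2 lower by DESeq2 and without alkaline replicate 1.

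Genes of the unfolded protein response were 10 higher and 0 lower of 28, with differences from 0.16 to 0.39 among those that passed. Herpud1, which helps remove misfolded proteins, stood at 53.4 and 61.6 CPM in control medium and 77.2 and 73.3 CPM in alkaline medium, and Xbp1, a transcription factor of the response, at 95.5 and 108 against 132 and 126 CPM (log2 difference 0.34, SE 0.055, edgeR adjusted p = 6.0e-05). Of 28 heat shock and chaperonin genes 7 were higher and 2 lower, or 4 lower without control replicate 1 and 1 without alkaline replicate 2, and of 37 amino acid response genes 7 were higher, or 3 without control replicate 1, and 5 lower. Phgdh, the first enzyme of serine synthesis, fell from 203 and 212 to 159.7 and 145 CPM (log2 difference -0.45, SE 0.05, edgeR adjusted p = 4.4e-07). Metallothionein and zinc transport genes were 7 higher, or 4 without control replicate 1, and 1 lower (0 without control replicate 2 or without alkaline replicate 1) of 14, with Mt1, a metal-binding protein, at 69.7 and 70.1 CPM against 92.4 and 91.4 CPM. In iron handling, 2 of 18 were higher and 5 lower: the exporter Slc40a1 (ferroportin) fell from 29.1 and 25.3 to 11.6 and 12.6 CPM (log2 difference -1.16, SE 0.10, edgeR adjusted p = 5.3e-09) and the uptake receptor Tfrc rose from 27.3 and 24.6 to 36.5 and 42.7 CPM. Of 17 clock genes 3 were higher and 5 lower, or 5 higher without alkaline replicate 1 and 3 lower without alkaline replicate 2; Arntl (BMAL1), an activator of the clock, rose from 30.5 and 32.9 to 58.1 and 56.5 CPM (log2 difference 0.85, SE 0.067, edgeR adjusted p = 1.6e-09) and its output gene Dbp fell by 0.78. Of 20 targets of CREB, the factor activated by cyclic AMP, 3 were higher and 6 lower. All these counts stand beside 9.58% higher and 10.4% lower among all genes tested. For the amino acid response the shares were 18.9% and 13.5%, and for iron handling 11.1% and 27.8%.

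The main inhibitors of the cell cycle did not pass. Of 15 CDK inhibitors and senescence markers, 4 were higher and 0 lower, or 2 higher by DESeq2 and, with 2 lower, without alkaline replicate 1; 1 was lower without alkaline replicate 2. Cdkn1a (p21) stood at 914 and 965 CPM in control medium and 933 and 925 CPM in alkaline medium (edgeR adjusted p = 0.84), Cdkn2b (p15) at 126 and 137 against 134 and 132 CPM (edgeR adjusted p = 0.92), and Cdkn2a (p16 and p19ARF) at 309 and 310.3 against 305 and 272 CPM (edgeR adjusted p = 0.17; 0.019 without alkaline replicate 1). In proliferating cells Cdkn2a was at 16.9 and 15.9 CPM. Cdkn1c (p57) rose from 20.8 and 20.5 to 38.1 and 33.1 CPM (log2 difference 0.79, SE 0.083, edgeR adjusted p = 1.9e-07). Lmnb1, lamin B1, which senescent cells lose, stood at 5.10 and 3.81 against 6.79 and 6.22 CPM, and at 169 and 173 CPM in proliferating cells; its increase (edgeR adjusted p = 0.021) did not pass without control replicate 2 (0.23) or without alkaline replicate 1 (0.075). Glb1, the lysosomal beta-galactosidase, stood at 59.8 and 61.5 against 71.9 and 64.9 CPM (edgeR adjusted p = 0.048) and did not pass without control replicate 1 (0.14), without alkaline replicate 1 (0.48), by DESeq2 (0.073), with library totals alone (0.072), with upper-quartile scaling (0.060) or with all 8 libraries in 1 fit (0.091).

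Cell cycle genes stood far below their proliferating level in both media. Of 43 replication and E2F target genes 0 fell and 2 rose. With all 8 libraries in 1 fit 4 rose and 1 fell, and 1 fell with library totals alone or with the replicate block. Leaving out control replicate 2 or alkaline replicate 1 also changed the count of falls. The 2 that rose were Mcm6, of the replicative helicase, from 16.3 and 16.6 to 32.9 and 28.00 CPM (log2 difference 0.89, SE 0.091, edgeR adjusted p = 1.2e-07), and Rrm2, of ribonucleotide reductase, from 43.1 and 44.8 to 71.2 and 61.9 CPM. The proliferating libraries stood at 158 and 169.6 CPM and 290.4 and 280.0 CPM for these genes. Of 40 genes of G2 and mitosis 0 rose and 3 fell. With all 8 libraries in 1 fit 2 rose and 5 fell, and with the replicate block 5 fell. Leaving out alkaline replicate 1 or control replicate 2 also changed these counts. The summed level of the mitotic genes was 201 and 193 CPM in control medium, 177 and 179 CPM in alkaline medium and 4445 CPM in proliferating cells. Of 36 p53 targets 5 were higher (13.9%) and 8 lower (22.2%), against 9.58% and 10.4% of all genes tested. The higher count was smaller without alkaline replicate 2. Pmaip1 (NOXA), which promotes cell death, rose from 301 and 295 to 463 and 496 CPM (log2 difference 0.69, SE 0.043, edgeR adjusted p = 4.7e-11), while Fas, a death receptor, and Perp fell by 0.66 and 0.37 on the log2 scale.

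Oxidative phosphorylation, mitochondrial-encoded, cytosolic ribosomal protein and proteasome genes showed few calls. Ribosome biogenesis genes and histones did not: 23.3% and 17.4% of those tested were higher, against 9.58% of all genes tested. Of 35 nuclear genes of oxidative phosphorylation 0 passed in edgeR's test, 2 were higher and 2 lower at an unadjusted p under 0.05, and 1 was higher by DESeq2 or without control replicate 1; 1 was lower without alkaline replicate 1. Of 13 mitochondrial-encoded transcripts 0 passed in edgeR's test, at an unadjusted p under 0.05 or by DESeq2, and 3 were higher without control replicate 1. Of 41 cytosolic ribosomal protein genes 0 were higher and 1, Rps14, was lower (4 without control replicate 2, 0 without control replicate 1 or without alkaline replicate 2). Of 31 proteasome genes 1 was higher and 1 lower (0 lower without control replicate 1, alkaline replicate 1 or alkaline replicate 2), where 20.0% of all genes tested passed. Ribosome biogenesis genes were 7 higher and 0 lower of 30, or 4 higher without control replicate 1 or without alkaline replicate 2, and 1 lower without the latter. Replication-dependent histones were 4 higher and 0 lower of 23 (1 lower without alkaline replicate 1); these genes are near-identical copies, and their mature RNA has no poly(A) tail, so both the split of reads and the level are uncertain. For the other counts of 0 by edgeR, an unadjusted p under 0.05 was reached by 0 further genes in that direction among the AHR, NRF2, complement, interferon and macrophage lists (0 by DESeq2) and among the unfolded protein response genes (0 lower by DESeq2), by 2 proton-sensing genes (higher; 0 by DESeq2), 2 class I genes (higher), 1 mitotic gene (higher; 0 by DESeq2), 2 cell cycle inhibitor and senescence genes (lower; 0 by DESeq2), and 1 gene each (lower; 0 by DESeq2) of the replication, ribosome biogenesis and histone lists.

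**Figure D4:**
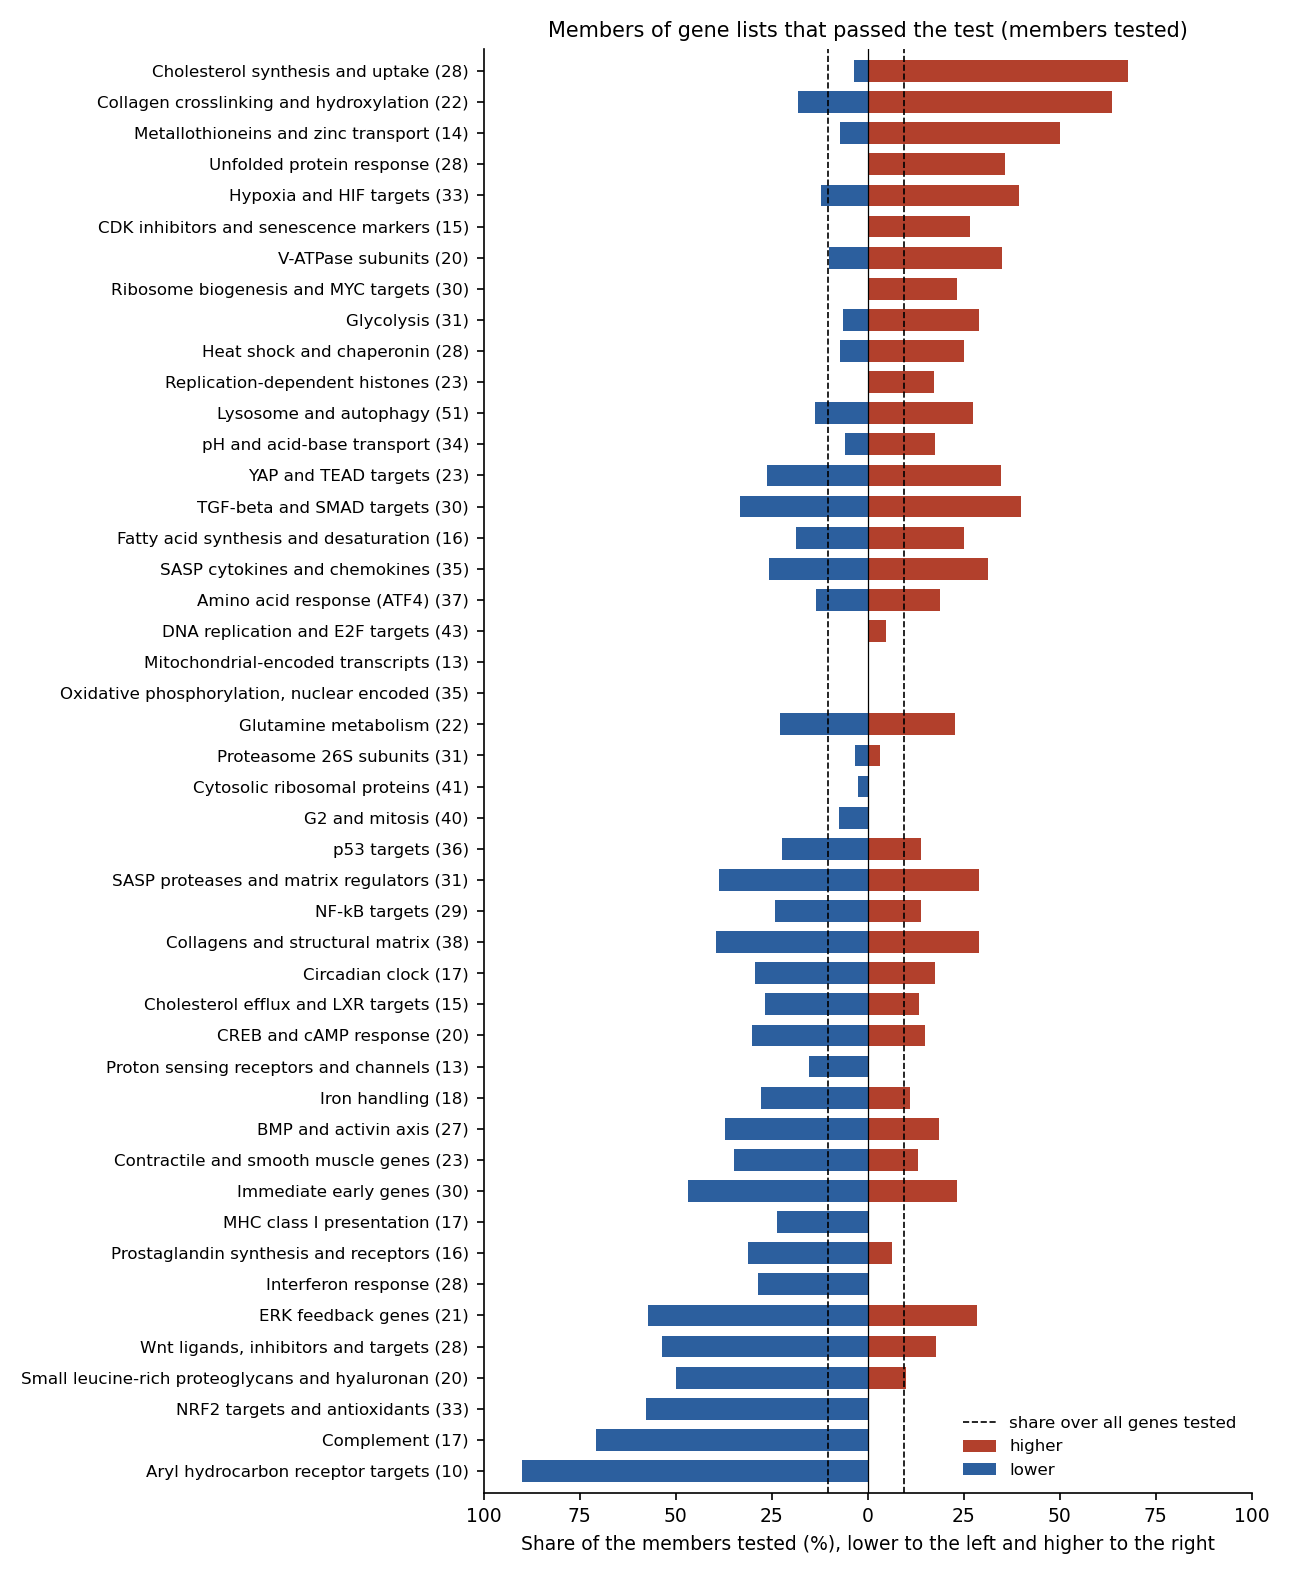
Share of the tested members of each gene list (number tested in brackets) that were higher (red, right) or lower (blue, left) in alkaline medium at an adjusted p under 0.05. Dashed lines give the shares over all genes tested, 9.58% higher and 10.4% lower. The lists with the largest share higher and lower are cholesterol synthesis, with 19 of 28, and AHR, with 9 of 10. All lists were chosen with earlier results of these data known.

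Markers of the fibroblasts themselves changed. Of 18 fibroblast markers, 4 were higher and 10 lower (median log2 difference -0.19). Prrx1, a transcription factor of limb and connective tissue mesenchyme, stood at 321 and 319 CPM in control medium and 159 and 165 CPM in alkaline medium (log2 difference -0.99, SE 0.044, edgeR adjusted p = 9.4e-14). Thy1 fell from 385 and 380.3 to 259 and 257 CPM (log2 difference -0.57, SE 0.041, edgeR adjusted p = 4.9e-10), and of the receptors for platelet-derived growth factor Pdgfra fell from 10.3 and 10.1 to 5.11 and 4.73 CPM and Pdgfrb rose from 315 and 342 to 430.4 and 441 CPM. Cartilage and bone markers were 3 higher and 7 lower of 15, with Sox9, the regulator of cartilage fate, higher by 0.60 and its target Col2a1 lower by 0.65 on the log2 scale. Of 9 epithelial and mesothelial markers tested, 1 was higher and 1 lower (0 lower by DESeq2; 2 lower with no filter on low counts or with all 8 libraries in 1 fit). Cldn4, a tight junction protein, stood at 1.09 and 0.814 CPM against 6.16 and 7.25 CPM (log2 difference 2.81, SE 0.21, edgeR adjusted p = 1.0e-09). Msln, mesothelin, was at 1.75 ± 0.36 CPM (SD, n = 2) against 0.849 ± 0.030 CPM (SD, n = 2; log2 difference -1.04, edgeR adjusted p = 0.024; 0.075 by DESeq2, 0.23 without control replicate 2 and 0.061 without alkaline replicate 1). The summed level of that list was 14.0 and 14.2 CPM in control medium and 18.3 and 18.4 CPM in alkaline medium. Of 10 endothelial markers 1, Vwf, passed and it was lost without control replicate 1, control replicate 2 or alkaline replicate 2 and by DESeq2; 2 were lower without alkaline replicate 1. Of 6 skeletal muscle markers 1 was higher and 1 lower, and of 7 neural and glial markers 2 were higher and 1 lower (0 without control replicate 1).

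The direction of the changes was set beside that of senescence, measured in the other 4 libraries, which the comparison of media does not use. Of 19264 genes tested there, 6553 (34.0%) were higher and 6377 (33.1%) lower in untreated n-Sen than in proliferating cells. Of the 18484 genes tested in both comparisons, 35.2% were higher and 32.8% lower in n-Sen. Among the 1979 that were lower in alkaline medium, 56.9% were higher in n-Sen cells and 25.97% lower. Among the 1805 that were higher in alkaline medium, 43.1% were higher in n-Sen cells and 36.0% lower. Read from the other list, 17.3% of the 6499 genes higher in n-Sen were lower in alkaline medium and 11.97% were higher; of the 6068 lower in n-Sen, 10.7% were higher in alkaline medium and 8.47% lower. Genes that fell in alkaline medium were thus more often higher in n-Sen than all genes tested, and less often lower. Genes that rose were more often higher and also more often lower in n-Sen. In n-Sen against proliferating cells, 378 of the 1805 that rose, 339 of the 1979 that fell and 5917 of all 18484 did not pass. The part of expression level and of the power of the tests in these shares was not tested.

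Among protein-coding genes with at least 10 CPM in the higher group of each comparison and no overlap in either, the 8 with opposite changes and the largest product of the 2 differences were all raised in n-Sen and lowered by alkaline medium. Folh1, a membrane peptidase, stood at 0.0965 and 0.0401 CPM in proliferating cells, 14.3 and 12.6 CPM in untreated n-Sen cells, 16.3 and 11.8 CPM in control medium and 5.48 and 5.20 CPM in alkaline medium (log2 difference -1.40, SE 0.14, edgeR adjusted p = 1.4e-07). Prelp (above) was at 10.4 and 10.1 CPM in proliferating and 269 and 266 CPM in untreated n-Sen cells. Pamr1, Gda, Olfr78, Palmd and Nkain4 fell by between 0.92 and 1.45 on the log2 scale with the medium, and Ppp2r2c by 0.48 (edgeR adjusted p = 0.0065; 0.13 without control replicate 1). Genes that moved the same way in both comparisons included Whrn and Wnt9a, which rose, and Igf2 and Ptx3, which fell. Igf2, an imprinted growth factor, stood at 625 and 580.5 CPM in proliferating cells, 16.03 and 14.1 CPM in untreated n-Sen cells, 19.5 and 18.1 CPM in control medium and 9.08 and 9.75 CPM in alkaline medium (log2 difference -0.999, SE 0.11, edgeR adjusted p = 1.9e-07). The 6 senescent libraries thus lay far below the proliferating ones, and the gap between the media was small beside that.

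**Figure D5:**
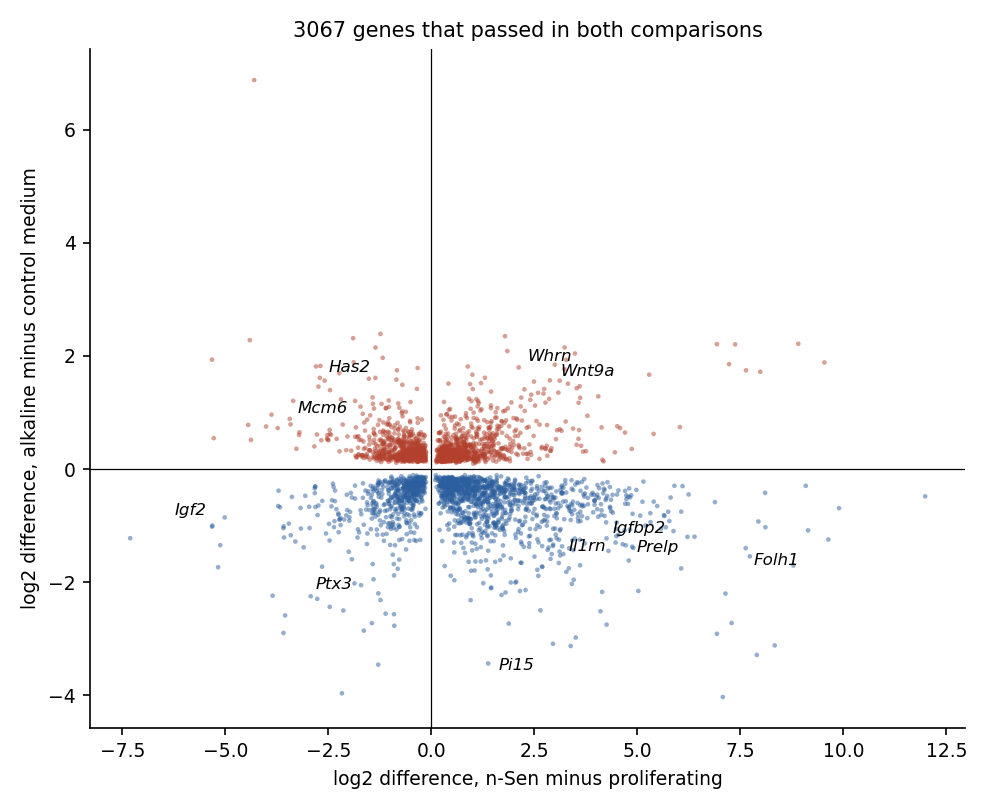
The 3067 genes that passed in both comparisons, with the log2 difference of untreated n-Sen minus proliferating cells on the x axis and of alkaline minus control medium on the y axis; red points rose and blue points fell with alkaline medium. The lower right quadrant, of genes raised in n-Sen and lowered by alkaline medium, holds 1126 genes, against 778 in the upper right, 649 in the upper left and 514 in the lower left.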

How the data were processed

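PolyA RNA from 8 libraries, 2 per group, was sequenced from a dUTP-stranded preparation, per the labels' protocols. The authors deposited estimated counts per gene in 2 tables of the same 54838 genes, 1 for the 4 media libraries and 1 for the other 4; about 33% of the values above 0 are fractional (32.7062% to 33.7005% by library), and they were rounded. The submitters' processing notes name build mm10 and the tools featureCounts (from Subread, version 2.0.2), DESeq2 1.34.0, fastp 0.23.2 and HISAT2 2.1.0; the annotation release and the strand setting are not given in the sources used here. Reads of overlapping genes or of near-identical copies may therefore be split or merged. Symbols were taken from GENCODE vM21 by gene identifier, and promoter windows, from 250 bases before to 50 after the start, from RefSeq.

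Genes were filtered with filterByExpr, scaled by TMM and tested with edgeR 4.0.16 (R 4.3.3, quasi-likelihood, Benjamini-Hochberg, threshold 0.05) on the 4 libraries compared. The standard error of a log2 difference is its size over the square root of F. The fit was run on counts simulated with known changes and the same dispersion for every gene. That run checks the code and cannot show that the p-values hold for these libraries. With 2 libraries against 2, an exact two-sided permutation test of a single gene cannot go below p = 0.333, so no such test is given. The labels do not say that replicate numbers mark pairs, so the main test did not use them as pairs. The same-numbered libraries did not deviate together (r = 0.0068 over genes), which with 2 libraries per group cannot settle the pairing. Lists were described by the number of members that passed and their median, with no test of a list.

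Genes were named by rule: the 15 with the largest fold and the 8 with the largest CPM difference in each direction, up to 4 members of smallest p per list and direction, key genes whatever their values, and, ranked by the product of the medium and senescence differences, 8 genes that moved in opposite and 5 that moved in like directions. Some genes that the rule selects are not reported here. Large-change genes had to be protein coding, with at least 10 CPM in the higher group and no overlap. The members and lists were chosen with earlier results of these data known. The alternatives were DESeq2 1.42.0, other scalings, other filters, a replicate block, all 8 libraries in 1 fit, and leaving out each library.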

Additional observations from a re-analysis of the deposited data

How the results depend on the processing

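The counts of genes higher and lower in alkaline medium stayed within 1.5 times of 1833 and 1995 under every alternative run. Leaving out 1 library gave 1465 to 1781 higher and 1730 to 1830 lower; the medium left with 1 library was then assumed to vary like the other. DESeq2 gave 1582 and 1538, library totals alone 1644 and 2210, no filter on low counts 1806 and 2166, and all 8 libraries in 1 fit 1675 and 1779. With the replicate block, 2056 were higher and 2254 lower. The labels do not say whether the shared numbers pair the libraries. Among the 309 named genes that passed, 261 did so in every alternative in which they were tested and 48 were lost in at least 1. The percentage of alkaline-higher genes that were lower in n-Sen, 35.96, was 38.6 with all 8 libraries. Genes that changed sign had not passed: Cdkn2b was at -0.0054 on the log2 scale with library totals alone. Without 1 library, Cdkn2b ranged from -0.046 to 0.072, Cdkn1a from -0.054 to 0.024, Gpr4 from -0.70 to 0.23, Lyz2 from -0.12 to 0.0018 and Slc16a1 from -0.094 to 0.31; the cause was not tested. The list counts above do not name every alternative that moved them. With the replicate block, 1 CDK inhibitor or senescence gene, 2 nuclear genes of oxidative phosphorylation and 1 histone gene were lower. With library totals alone 3 cytosolic ribosomal protein genes were lower, and with all 8 libraries in 1 fit 2 prostaglandin genes were higher. Depth limits the genes under about 1 CPM.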
